A study of Homo sapiens with 10 samples.

Results

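The comparison set the MCF10A arrays of days 2 and 3 of TGFβ treatment against the array of day 1. All 23786 genes of the array table were members, so no gene was chosen by its value, and 3 of the 10 arrays of the series entered the difference itself. MCF10A is an immortalised, non-tumorigenic human mammary epithelial line. The treated cells received TGFβ1 at 10 ng/mL for 48 h (day 2), 72 h (day 3) or 24 h (day 1), and the remaining arrays held cells treated for 4 h or for 4, 5, 6, 8 or 12 days and untreated cells. All cultures were deprived of serum for 16 h before harvest. Each time had 1 array, and all arrays came from 1 cell line, so the spread in every test below was measured between neighbouring times (days 2 and 3, and days 5, 6 and 8) and not between repeated cultures of 1 time. Time after treatment and any difference between the cultures of a time cannot be told apart.

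TGFβ binds paired serine-threonine kinase receptors, and the SMAD proteins that these phosphorylate enter the nucleus and act on target genes together with other factors. In mammary epithelium the ligand slows division and starts the epithelial to mesenchymal transition (EMT), in which cells lose polarity, lay down matrix and gain contractile and migratory properties. The first day covers the direct response, and the following days cover the period in which cells in such cultures begin to take on mixed epithelial and mesenchymal features.

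Values were log2 array intensities, so a difference of 1 is a doubling. The lower quartile of genes lay between 1.64 and 1.80 on the arrays, and the array medians lay between 2.92 and 2.98. The cells carried the markers of their labelled origin on all 3 arrays. The 12 basal mammary markers had a summed log2 level of 103.9 on day 2 and 102.1 on day 3, against 103.6 on day 1. The keratin KRT5 stood at 10.93 on day 2 and 10.56 on day 3, against 11.09 on day 1. None of the 12 differed by the test described next. Nor did any of 9 luminal markers, of which the highest stood at 8.80 on day 1. Of the 7 leukocyte markers none was called, and their summed log2 level was 16.4 on day 2 and 17.2 on day 3, against 18.3 on day 1. They were not all low: the highest value of any was 7.73 on day 1 and 7.15 over days 2 and 3. PTPRC (CD45) stood at 0.98 on day 2 and 1.13 on day 3, against 1.08 on day 1, which lies below the lower quartile. No endothelial or adipocyte marker was called (0 of 6 and 0 of 4), and of the 7 fibroblast and pericyte markers 1, DCN, was.

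The passage into day 2 was the broadest of the steps that followed the first hours. Between day 2 and day 1, 337 genes were at least 1 log2 unit higher and 224 at least 1 lower. The step between day 1 and 4 h had 216 and 199 such genes, and the opening step between 4 h and untreated cells 525 and 331. After day 2 each daily step held fewer genes, with 93 higher and 98 lower between day 3 and day 2. The steps that followed up to day 8 had between 117 and 180 in both directions together, and the 4-day step between day 12 and day 8 had 286. No step has a replicate of its own, and the steps do not all span the same time, so these counts are a description.

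**Figure D1:**
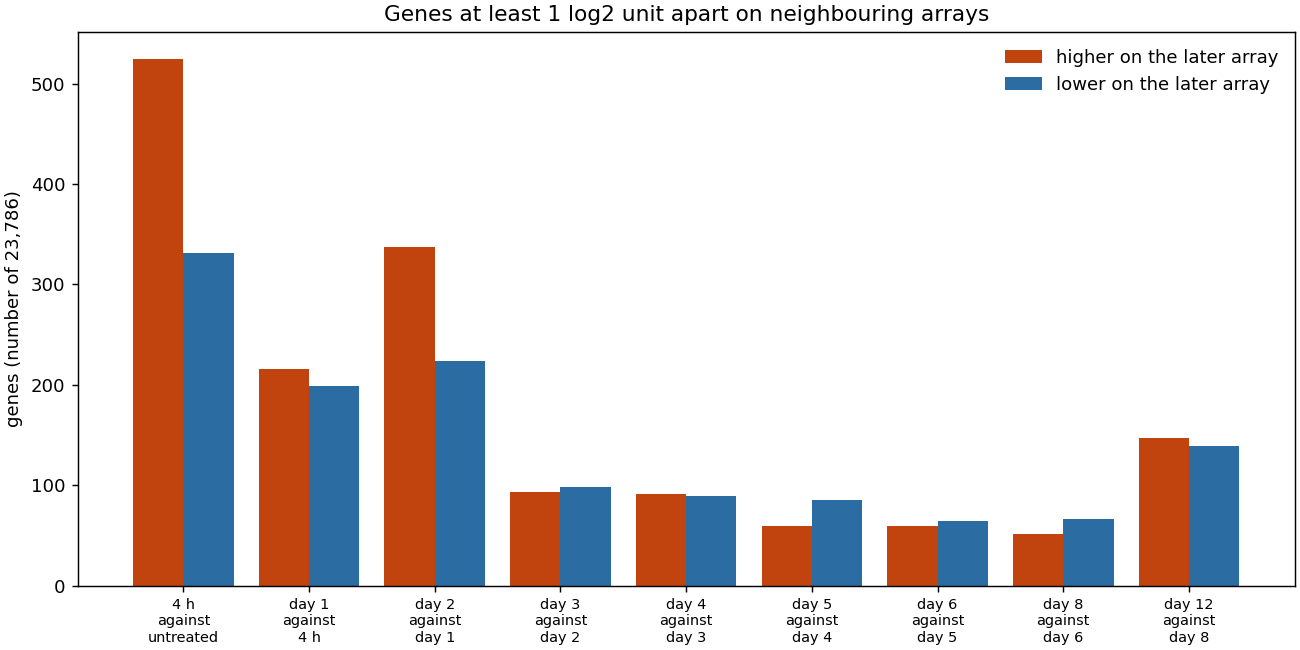
Number of genes (vertical axis, of 23786) at least 1 log2 unit higher or lower on an array than on the array before it, for the 9 neighbouring pairs in order of time. The pair of day 2 and day 1, with 337 higher and 224 lower, exceeds every later pair and the pair of day 1 and 4 h.

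Across all genes the difference was tested with limma, in a fit of 1 mean per time group to all 10 arrays. Calls needed a log2 difference of at least 1 and a p-value, adjusted by Benjamini and Hochberg's method, no higher than 0.05. On days 2 and 3, 127 genes rose (0.534% of those tested) and 71 fell (0.298%), against day 1. Counts of called list members below are to be read beside these shares. The median difference over all genes was -0.01, with quartiles at -0.19 and 0.18. By the plainer rule that both day 2 and day 3 lie at least 1 log2 unit from day 1 on the same side, 176 genes were higher (0.74%) and 120 lower (0.504%). Of the called genes 115 of those that rose and 65 of those that fell also met that rule. The adjusted p-values rested on 3 residual degrees of freedom, and the calls depended on which arrays supplied them. Without the day 6 array limma called 0 genes, with 3181 genes at an unadjusted p of at most 0.05 and a smallest adjusted p of 0.0707. Without day 3 it called 13, without day 2 71, without day 8 69 and without day 5 95, where the remaining array of days 2 and 3 was taken to vary like the other groups. For the genes described most fully the values of days 2 and 3 are given separately, and other called genes are given by their difference. Of the risen genes 8 had a day 1 value below 1.80, the highest lower quartile of any array, as 6 of the fallen had their mean of days 2 and 3. Whether such values lay above background was not tested.

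Of the called genes that rose, AMTN had the largest difference. AMTN encodes amelotin, a secreted protein of the enamel surface and of the epithelium that attaches gum to tooth. It stood at 7.36 on day 2 and 8.67 on day 3, against 4.53 on day 1. Both later arrays lay above day 1, day 3 the higher. The log2 difference was 3.49 ± 0.44 (SE), an 11.2-fold change (adjusted p = 0.0236). Over the full course AMTN went through 2.08 in untreated cells, 2.13 at 4 h and 4.53 on day 1, stood highest at 8.90 on day 4 and was at 6.94 on day 12. Of the 23 secretory phosphoprotein and enamel genes in the list that holds it, none other was called, and the enamel matrix gene ENAM stood at 1.77 on day 2 and 1.76 on day 3, against 1.70 on day 1.

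Some genes of the contractile apparatus and of matrix assembly rose. MYL9, the regulatory light chain of smooth muscle and non-muscle myosin, was measured at 7.71 on day 2 and 7.62 on day 3, against 5.13 on day 1. The 2 later arrays agreed to within 0.1 log2 unit, and the difference of 2.54 ± 0.16 had the smallest adjusted p of the whole table (0.00665). TAGLN, the actin-binding protein transgelin, followed at 7.23 on day 2 and 6.91 on day 3, against 5.15 on day 1 (1.92 ± 0.19, adjusted p = 0.0173). PDLIM7, a LIM-domain protein of actin bundles, rose by 1.17 on the log2 scale. These were the 3 of 44 actin and contractility genes called, beside 0.534% of all genes, with none having fallen. The median of the list was 0.24 beside -0.01 over all genes, and 12 of the 44 lay below day 1. TPM2, a tropomyosin, had a difference of 1.13 and was not called.

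FN1, fibronectin, the matrix glycoprotein long used to mark mesenchymal change, stood at 10.48 on day 2 and 11.29 on day 3, against 8.75 on day 1 (2.14 ± 0.29, 4.39-fold, adjusted p = 0.026). It had already climbed before, with 5.06 in untreated cells and 6.03 at 4 h. FBLN5, an elastic fibre glycoprotein, and MFAP5, a microfibril glycoprotein, behaved otherwise: FBLN5 was at 5.12 on day 2 and 5.90 on day 3, against 2.93 on day 1, and MFAP5 at 6.61 on day 2 and 6.99 on day 3, against 4.51 on day 1. Neither had been above its untreated level on day 1, when untreated cells measured 3.63 for FBLN5 and 5.12 for MFAP5. Of the 60 collagens and matrix proteins 4 were called higher, beside 0.534% of all genes, and none fell. The remaining member was DCN, the small proteoglycan decorin. The list median was 0.16, and 19 of the 60 lay below day 1. TNC (tenascin C, 1.71, adjusted p = 0.0522) and SPARC (2.12, adjusted p = 0.0568) had both days at least 1 log2 unit above day 1 and missed the test.

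Several matrix proteases rose. MMP12, the macrophage metalloelastase, measured 4.01 on day 2 and 5.12 on day 3, against 1.59 on day 1, a level below the lower quartile. MMP9, the gelatinase B, stood at 5.26 on day 2 and 5.80 on day 3, against 3.38 on day 1 (2.15 ± 0.25, adjusted p = 0.018), and MMP2, gelatinase A, at 7.16 on day 2 and 7.40 on day 3, against 5.30 on day 1 (1.98 ± 0.19, adjusted p = 0.0172). Both gelatinases were higher on each later array than on day 1. Day 1 itself already stood above untreated cells by 2.06 for MMP2 and by 0.245 for MMP9. ADAMTS6 (1.83), the plasminogen activator PLAU (1.37) and the procollagen C-proteinase BMP1 (1.12) were called as well. In the list of 39 matrix proteases and inhibitors 5 rose and 1 fell, beside 0.534% and 0.298% of all genes. The list median was 0.20 (MMP12 is not on that list). MMP13, a collagenase, was at 3.66 on day 2 and 3.90 on day 3, against 1.57 on day 1, again below the lower quartile, with an adjusted p of 0.053. The member that fell was SERPINE2, protease nexin-1, an inhibitor of thrombin and plasminogen activators, at 4.96 on day 2 and 5.43 on day 3, against 7.25 on day 1 (-2.06 ± 0.22, adjusted p = 0.0173). SERPINE2 had its highest value of all 10 arrays on day 1, with 4.67 in untreated cells. In the 250 bases before the start, from RefSeq promoters of GRCh38.p14, the SMAD box (CAGAC, either strand) was found in 18 of 44 matrix protein genes (40.9%) and 12 of 22 protease genes (54.5%), beside 37.8% of all promoters. The AP-1 site (TGAGTCA, either strand) was found in 4 of the 44 and 2 of the 22, or 9.09% of each list, beside 4.16% of all promoters.

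Several receptors and secreted regulators stood in the same group. PDGFD, a ligand of the platelet-derived growth factor receptor, gave 5.61 on day 2 and 5.63 on day 3, against 2.82 on day 1 (2.80 ± 0.23, adjusted p = 0.0137). CD36, a scavenger receptor for fatty acids and thrombospondin, was at 4.53 on day 2 and 4.11 on day 3, against 1.43 on day 1, a level below the lower quartile (2.89 ± 0.24, adjusted p = 0.0137). EPHA4, an ephrin receptor kinase, was at 7.64 on day 2 and 7.12 on day 3, against 5.04 on day 1. For each of the 3 genes the later arrays lay more than 2 log2 units above day 1. Between untreated cells and day 1 EPHA4 had already risen by 3.26, while the differences were -0.07 for CD36 and 0.02 for PDGFD. SDC2, the heparan sulphate proteoglycan syndecan 2, stood at 5.28 on day 2 and 5.06 on day 3, against 3.00 on day 1, its lowest value of the course. SLC47A2, an exporter of organic cations, rose by 2.32 and SNCAIP, a synuclein-binding protein, by 2.48 on the same scale. CD86, a costimulatory ligand best known from antigen-presenting cells, rose by 1.91.

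**Figure D2:**
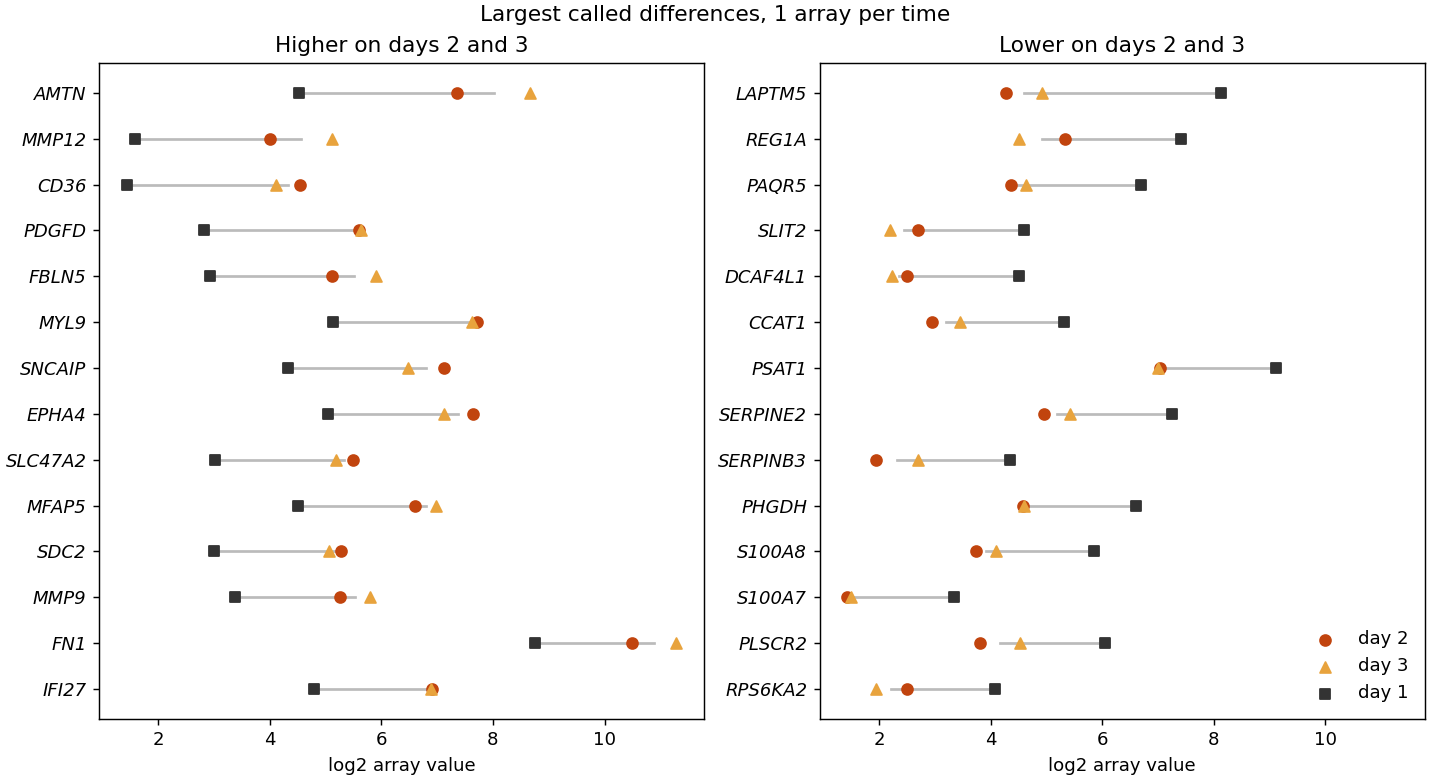
Log2 array values (horizontal axis) of the 14 named genes with the largest called rise (left) and the 14 with the largest called fall (right). Circles are day 2, triangles day 3 and squares day 1, with 1 array each, and the grey line joins day 1 to the mean of days 2 and 3. In every gene both later values lie on the same side of day 1, from AMTN at 3.49 to LAPTM5 at -3.54.

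Few of the genes most often read as markers of EMT passed the test between these days. CDH2 (N-cadherin) stood at 6.47 on day 2 and 6.48 on day 3, against 6.19 on day 1, while untreated cells measured 3.44. VIM (vimentin) was at 8.19 on day 2 and 8.17 on day 3, against 8.53 on day 1. CDH1 (E-cadherin), the adhesion protein of epithelial junctions, was at 9.99 on day 2 and 9.84 on day 3, against 9.52 on day 1. None of the 3 was called, nor were MUC1 (0.35), TGFBI (0.39) or the polarity gene SCRIB (-0.21). Of the 35 mesenchymal markers 7 rose (FBLN5, FN1, FSTL1, TAGLN, DCN, LOX and ENG) and 1, SERPINE2, fell, beside 0.534% and 0.298% of all genes. Their median was 0.28, or 0.13 on day 2 alone and 0.22 on day 3 alone. None of the 28 EMT transcription factors was called and their median was 0.05, with -0.05 on day 2 alone and 0.16 on day 3 alone, the largest difference being 0.86 for ZEB1. ZEB1 measured 5.28 on day 2 and 5.25 on day 3, against 4.40 on day 1, with an adjusted p of 0.196. None of the 47 genes of epithelial junctions and polarity was called, with a median of 0.06 (0.05 on day 2 alone and just under 0 on day 3 alone).

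Within the TGFβ pathway itself 2 of 43 genes rose and 1 fell, beside 0.534% and 0.298% of all genes. The median was 0.13, but 0.01 on day 2 alone and 0.05 on day 3 alone. LTBP3, a protein that tethers latent TGFβ in the matrix, was at 5.87 on day 2 and 6.17 on day 3, against 4.41 on day 1. TGFB2, the second ligand of the family, was at 5.87 on day 2 and 5.69 on day 3, against 4.42 on day 1, which was its lowest value of the course (5.42 in untreated cells). TGFBR3, the coreceptor betaglycan, which presents that ligand, was at 6.56 on day 2 and 6.15 on day 3, against 7.72 on day 1, its highest. ID1, an inhibitor of helix-loop-helix factors, rose by 1.00, to 6.55 on day 2 and 6.48 on day 3, against 5.51 on day 1. It belongs to a separate list of 19 ID and BMP pathway genes, with a median of -0.04. ID1 was the 1 member called, beside 0.534% of all genes called higher. The rule that both days lie at least 1 log2 unit from day 1 was not met, and ID1 averaged 5.41 on days 5 to 8.

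Genes of G2 and mitosis lay mostly above day 1. Of 53 measured, 49 were higher on days 2 and 3 than on day 1, and the list median of 0.66 was the highest of the 36 lists examined. By the test 2 rose, beside 0.534% of all genes. KIF20A, a kinesin of the central spindle, was at 4.77 on day 2 and 5.07 on day 3, against 2.83 on day 1 (2.09 ± 0.24, adjusted p = 0.018). TOP2A, the topoisomerase that disentangles sister chromosomes, was at 6.50 on day 2 and 6.23 on day 3, against 4.54 on day 1 (1.83 ± 0.25, adjusted p = 0.026). By the fold rule 9 of the 53 were higher on both days and none lower, beside 0.74% and 0.504% of all genes. The proliferation antigen MKI67, at 6.19 on day 2 and 6.06 on day 3, against 4.71 on day 1, missed the test with an adjusted p of 0.0622, as did CENPF, a kinetochore protein (0.054), and the checkpoint kinase BUB1 (0.0517). In untreated cells the list median lay 0.06 above day 1, with KIF20A at 2.54 and MKI67 at 5.89. The 48 genes of DNA replication and S phase had a median of -0.02, with none called.

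The promoters of the mitosis genes are shown because many carry the elements through which cell cycle genes are known to be timed. RefSeq promoter sequences of GRCh38.p14 were available for 45 of the 53. In the 250 bases before the start site, the cell cycle homology region (TTTGAA, either strand) was found in 51.1% of them and in 13.6% of all 27305 promoters, and the CCAAT box (CCAAT, either strand) in 73.3% and 33% of them. In the 60-base stretches below, capitals mark the cell cycle homology region in TOP2A and the CCAAT box in KIF20A. The stretch of TOP2A (chr17:40418036-40418095, minus strand) has 2 cell cycle homology regions, 1 on each strand, and between them an inverted CCAAT box left in lower case, and that of KIF20A (chr5:138179004-138179063, plus strand) has 2 inverted CCAAT boxes.
TOP2A: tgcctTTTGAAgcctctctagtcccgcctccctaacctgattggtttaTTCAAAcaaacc
KIF20A: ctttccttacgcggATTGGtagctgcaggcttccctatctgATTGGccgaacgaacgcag
Mitosis genes with the cell cycle homology region had a median difference of 0.68 (23 genes) and those without one of 0.59 (22 genes). Over all genes with a promoter, the median was 0.01 with the motif and -0.01 without it.

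Interferon-response genes were another list whose members lay mostly higher on days 2 and 3. Of 54 measured, 44 were above day 1 and 4 were called, all of them having risen, beside 0.534% of all genes. The list median was 0.40 (0.25 on day 2 alone and 0.42 on day 3 alone). IFI27, a mitochondrial protein induced by type I interferon, was at 6.90 on both day 2 and day 3, against 4.79 on day 1 (2.12 ± 0.24, adjusted p = 0.018). IFI6, its relative, was at 8.24 on day 2 and 8.53 on day 3, against 6.27 on day 1 (2.11 ± 0.24, adjusted p = 0.018). Both had their lowest values of the course on day 1 itself, though the untreated values of 5.02 for IFI27 and 6.56 for IFI6 lay within 0.3 of it. SAMD9L, an antiviral protein, rose by 1.17 and the helicase-like DDX60L by 1.10. The classical members MX1 (1.33 on day 2 and 1.16 on day 3, against 1.38 on day 1) and OAS2 (a difference of -0.07) were not called. Among 23 guanylate-binding proteins and other interferon-γ targets none was called, and the median was 0.07 (0.15 on day 2 alone and 0.14 on day 3 alone). GBP2, a guanylate-binding GTPase, was at 6.97 on day 2 and 7.10 on day 3, against 5.88 on day 1, a difference of 1.15 ± 0.23 with an adjusted p of 0.0742.

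The interferon-stimulated response element (GAAANNGAAA, either strand, in the 250 bases before the start) was found in 24 of the 45 interferon-response genes with a promoter sequence, or 53.3%, and in 3.07% of all promoters. The stretches of 3 of the called genes are shown with the element in capitals, all from GRCh38.p14: IFI27 (chr14:94110610-94110669, plus strand), IFI6 (chr1:27672293-27672352, minus strand) and DDX60L (chr4:168480523-168480582, minus strand). Each contains the element 2 times.
IFI27: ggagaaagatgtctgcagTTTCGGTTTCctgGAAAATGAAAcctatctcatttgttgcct
IFI6: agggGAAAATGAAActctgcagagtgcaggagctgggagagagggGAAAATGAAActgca
DDX60L: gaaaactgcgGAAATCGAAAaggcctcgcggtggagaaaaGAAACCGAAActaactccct
List members with the element had a median difference of 0.49 and members without it 0.40 (24 and 21 genes). Across all 444 measured genes with the element the median was 0.03, and 7 were called higher, 3 of them list members, and 2 lower. The 15894 genes without it had a median of -0.005, and 89 were called higher and 48 lower.

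Messages for ribosomal proteins lay mostly below day 1. Of 58 cytosolic ribosomal protein genes measured, 51 (87.9%) were lower on days 2 and 3 than on day 1, beside 51.1% of all genes, and the list median was -0.61, the lowest of the 36 lists. By the test 4 fell, beside 0.298% of all genes. They were RPS13 (6.69 on day 2 and 6.65 on day 3, against 8.01 on day 1), RPL8 (8.64 on day 2 and 8.60 on day 3, against 9.66 on day 1), RPL4 (8.66 on day 2 and 8.67 on day 3, against 9.69 on day 1) and RPS24 (4.69 on day 2 and 4.66 on day 3, against 5.68 on day 1). In all 4 the later arrays lay within 0.1 of each other, and the differences ran between -1.34 and -1.01. RPS16, of the small subunit, was at 7.04 on day 2 and 7.03 on day 3, against 8.08 on day 1, a difference of -1.04 ± 0.19 that missed the threshold with an adjusted p of 0.053. Many ribosomal protein genes have near-identical processed copies elsewhere in the genome, and how far their array probes also bind those transcripts was not tested.

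Related lists also had medians below 0, with no member called. The medians were -0.46 for 18 hosts of small nucleolar RNAs, of which GAS5 had a difference of -1.01, -0.39 for 32 translation factors, -0.30 for 40 ribosome biogenesis factors and -0.49 for 37 genes of oxidative phosphorylation. In the last list 36 of 37 were lower than on day 1, SDHD (a subunit of succinate dehydrogenase) the most at -1.19. The ribosomal protein starts are shown for the pyrimidine tract at the 5′ end of their messages, through which translation of this class is known to be regulated. A C followed by at least 4 pyrimidines, beginning within 5 bases of the annotated start, was found in 34 of 47 ribosomal protein genes with a sequence (72.3%) and in 21.1% of all. The 30-base windows below begin 10 bases before the annotated start, with the tract in capitals: RPS13 (chr11:17077648-17077677, minus strand), RPS24 (chr10:78033853-78033882, plus strand) and RPS16 (chr19:39435930-39435959, minus strand), all in GRCh38.p14.
RPS13: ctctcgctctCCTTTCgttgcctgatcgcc
RPS24: aatcgtggttCTCTTTTCCTCCTTggctgt
RPS16: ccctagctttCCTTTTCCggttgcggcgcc
The 34 ribosomal protein genes with a tract had a median difference of -0.60 and included 3 of the called genes, and the 13 without one had a median of -0.18. Over all 3571 measured genes with a tract the median was 0.00.

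**Figure D3:**
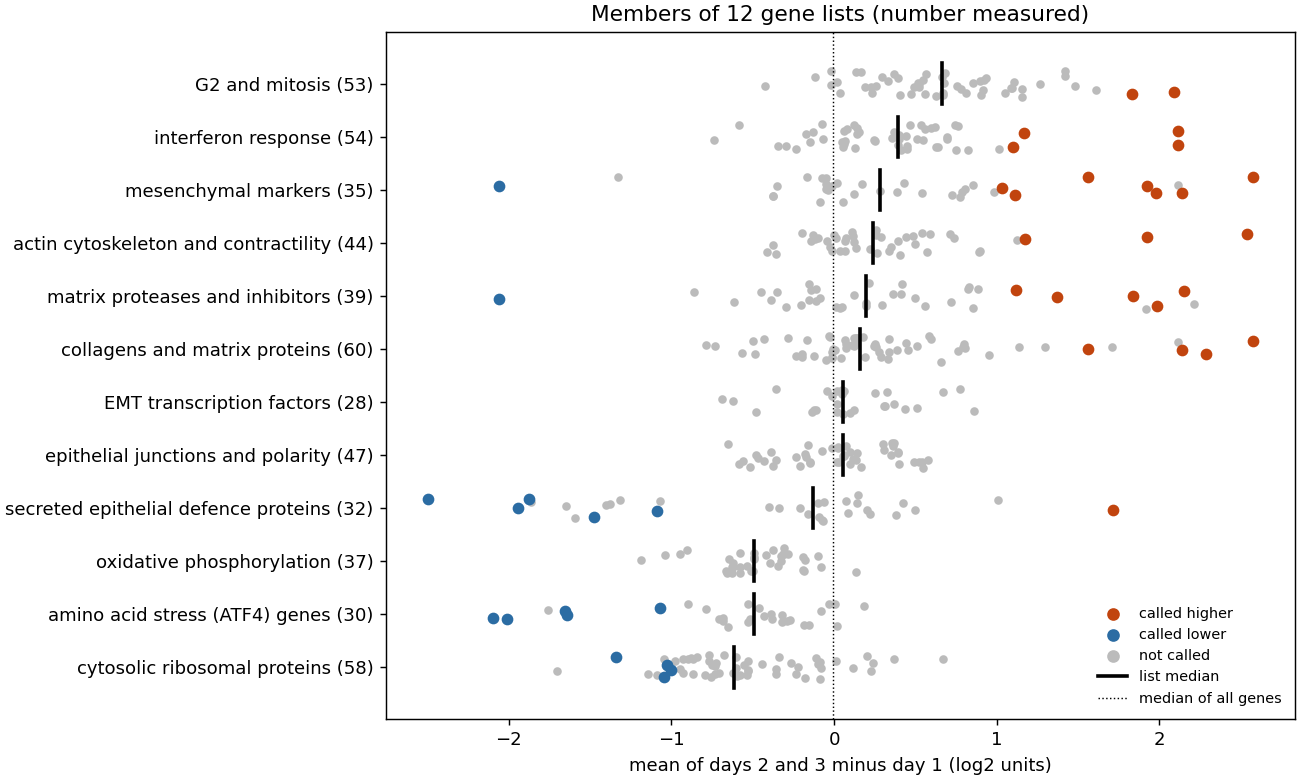
Log2 difference of the mean of days 2 and 3 from day 1 (horizontal axis) for each measured member of 12 gene lists (vertical axis, number measured in brackets). Red points were called higher, blue points called lower and grey points not called, black bars are list medians, and the dotted line is the median of all genes. The list medians run between 0.66 for G2 and mitosis and -0.61 for ribosomal proteins.

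Several genes of serine and amino acid synthesis fell. PHGDH, which commits glycolytic carbon to serine, was at 4.58 on day 2 and 4.60 on day 3, against 6.60 on day 1 (-2.01 ± 0.21, adjusted p = 0.0173). PSAT1, the next enzyme of that route, was at 7.04 on day 2 and 7.01 on day 3, against 9.12 on day 1 (-2.10 ± 0.32, adjusted p = 0.0353). In both genes the later values nearly coincided, at 4.02-fold (PHGDH) and 4.28-fold (PSAT1) below day 1. ASNS (asparagine synthetase, -1.64), ALDH1L2 (a mitochondrial folate enzyme, -1.66) and CBS (cystathionine synthase, -1.07) also fell. That made 5 of the 30 genes on the list of ATF4-type amino acid stress genes, beside 0.298% of all genes. None of the list was called higher, its median was -0.49, and 27 of the 30 lay below day 1. ATF4 itself (0.004), DDIT3 (-0.03), DDIT4 (0.02) and CHAC1 (-0.15) differed little. The cystine carrier SLC7A11 had a difference of -1.76 and an adjusted p of 0.0657. Outside that list the glucose-phosphorylating enzyme HK2 (-1.53) and the fatty acid desaturase SCD (-1.29) fell, each the 1 called member of its list (34 glycolysis and hypoxia genes, 33 cholesterol and fatty acid genes).

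The largest fall of all was that of LAPTM5, a lysosomal membrane protein best known from blood cells. It was at 4.27 on day 2 and 4.92 on day 3, against 8.13 on day 1, a difference of -3.54 ± 0.37 (11.6-fold, adjusted p = 0.0173). Day 1 was the highest of its 10 values, with 6.93 in untreated cells. Next came REG1A, a secreted lectin-like protein of the gut and pancreas, at 5.33 on day 2 and 4.51 on day 3, against 7.42 on day 1. Among 32 secreted epithelial defence proteins 5 fell (REG1A, S100A8, S100A7, SCGB1A1 and S100A9) and 1, the complement protease C1S, rose, beside 0.298% and 0.534% of all genes. Their median was -0.13, or -0.28 on day 2 alone and -0.17 on day 3 alone. Most of the fallen members had been falling before. Day 1 differed from untreated cells by -1.01 for S100A8, -2.3 for S100A7, -1.5 for SCGB1A1 and -1.43 for S100A9, but by 0.10 for REG1A. For C1S that earlier difference was 1.71. S100A8, a calcium-binding protein of calprotectin, was at 3.73 on day 2 and 4.10 on day 3, against 5.86 on day 1, and S100A7 (psoriasin) at 1.43 on day 2 and 1.49 on day 3, against 3.34 on day 1, so that S100A7 was below the lower quartile on the later days. By the fold rule 9 of the 32 were lower on both days and 1 higher, beside 0.504% and 0.74% of all genes. SERPINB3, a squamous cell serpin, fell by 2.02 on the log2 scale, and was at 1.95 on day 2 and 2.71 on day 3, against 4.35 on day 1.

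Interleukin 1 and NF-κB targets were split. CXCL8 (interleukin 8), the receptor IL1R1 and TNFAIP2 rose, and IL1A, the apoptosis inhibitor BIRC3 and the receptor IL1RL1 fell. So 3 of 40 were called in each direction, beside 0.534% higher and 0.298% lower of all genes. The median was 0.07, with -0.03 on day 2 alone and 0.15 on day 3 alone. CXCL8 was at 6.11 on day 2 and 6.08 on day 3, against 4.43 on day 1, which was its lowest value, with 7.26 in untreated cells. IL1A was at 5.62 on day 2 and 6.23 on day 3, against 7.53 on day 1, when it already differed from untreated cells by -1.945. CXCL14, a chemokine of epithelia on the same list, had a difference of 3.08 that was not called (adjusted p = 0.0901), since day 2 at 8.63 and day 3 at 6.62 lay far apart, against 4.55 on day 1. Among 15 ligands and receptors of the EGF family the ligand EPGN rose by 1.26 and NRG1 had a difference of -1.18, both called.

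CCAT1, a long non-coding RNA first described in colon cancer, was the 1 of 19 listed long non-coding RNAs called. It was at 2.94 on day 2 and 3.46 on day 3, against 5.31 on day 1 (-2.11 ± 0.27, 4.31-fold, adjusted p = 0.0236). Over the course it measured 8.89 in untreated cells, 8.30 at 4 h and 5.31 on day 1, with its lowest value on day 2, and 6.70 on day 12. PAQR5, a membrane progestin receptor, fell by 2.21 on the log2 scale and SLIT2, a ligand of the Robo guidance receptors, fell by 2.17. SLIT2 had fallen before as well, with 5.99 in untreated cells. DCAF4L1, PLSCR2 and the kinase gene RPS6KA2 completed the 14 largest falls, with differences of -2.14, -1.88 and -1.87.

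Of the microRNA loci 5 were among the 198 called genes of 23786, and 2 of them are described here, chosen after their values were seen. The share called among all microRNA loci was not computed. Of the others, MIR4289 and MIR548C stood at 1.67 and 0.76 on day 1, below the lower quartile. MIR4266 averaged 1.89 on days 2 and 3. The array probes cover the precursor locus, so the values are not levels of the mature RNA. MIR224 stood at 7.37 on day 2 and 7.10 on day 3, against 5.49 on day 1, a rise of 1.74 ± 0.25 (adjusted p = 0.028). The gene GABRE, whose locus contains MIR224, was at 8.51 on day 2 and 8.24 on day 3, against 6.95 on day 1 (1.42 ± 0.19, adjusted p = 0.0236). MIR222 was at 6.40 on day 2 and 6.69 on day 3, against 7.85 on day 1 (-1.30 ± 0.18, adjusted p = 0.0273). Day 1 already differed from untreated cells by 1.26 for MIR224 and by -1.96 for MIR222. The neighbour of MIR222, MIR221, which shares the seed, had a difference of -1.07 that was not called (adjusted p = 0.112). RefSeq mature sequences are given with bases 2 to 8, the seed that pairs with target messages, in capitals.
miR-224-5p: uCAAGUCAcuagugguuccguuuag
miR-222-3p: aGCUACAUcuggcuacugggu
miR-221-3p: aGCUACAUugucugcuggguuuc
The 3 loci lie on the X chromosome at chrX:151958628-151958652, chrX:45747036-45747056 and chrX:45746180-45746202, minus strand, in GRCh38.p14.

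The remaining arrays, which did not enter the difference, show where the called genes stood before and after. Of the 127 genes that rose, 117 were nearer to the day 1 value than to the mean of days 2 and 3 in untreated cells, and 119 were nearer to the mean of days 2 and 3 on day 4. For the 71 that fell, 58 were nearer to day 1 in untreated cells and 69 nearer to days 2 and 3 on day 4. Over all genes 56.8% were nearer to day 1 in untreated cells and 39.1% on day 4. On day 12, 39 of the risen and 13 of the fallen genes were nearer to day 1, beside 43.2% of all genes. On day 1, 33 of the 127 risen genes had already been at least 1 log2 unit above their untreated level, beside 2.81% of all genes, and 11 of the 71 fallen genes that far below it, beside 1.82%. Day 1 was the lowest of all 10 arrays for 22 of the risen genes and the highest for 27 of the fallen ones, beside 7.24% and 9.51% of all genes. Since the genes were selected by their distance from day 1, these counts are a description only.

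The called genes were sorted into 3 courses after day 3 by a band of 0.5 log2 unit. The spread over days 5, 6 and 8 also entered the test that called these genes, so the counts are a description only. Judged by the mean of days 5, 6 and 8, 30 of the genes that rose had gone at least 0.5 log2 unit further, 69 stayed within 0.5 and 28 had moved back by at least 0.5. Of the genes that fell, 14 went further, 52 stayed and 5 moved back. FN1, MFAP5, KIF20A and TOP2A were among those that went further, TOP2A to 8.02 ± 0.29 (SD, n = 3 times) on days 5 to 8, beside 6.50 on day 2 and 6.23 on day 3. REG1A, at 1.12 ± 0.25 on days 5 to 8, was below the lower quartile by then. MYL9 (7.92 ± 0.06), MMP2 (7.73 ± 0.13), SDC2 (5.12 ± 0.13), RPS13 (6.55 ± 0.10) and SLIT2 (2.39 ± 0.30) held close to their values of days 2 and 3. The interferon genes IFI27 and IFI6 stayed up on day 4, at 6.80 and 8.33, and averaged 5.38 ± 0.31 and 7.34 ± 0.25 on days 5 to 8. SAMD9L and DDX60L averaged 4.81 ± 0.11 and 6.17 ± 0.10 on days 5 to 8, beside means of 4.78 and 6.17 on days 2 and 3.

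**Figure D4:**
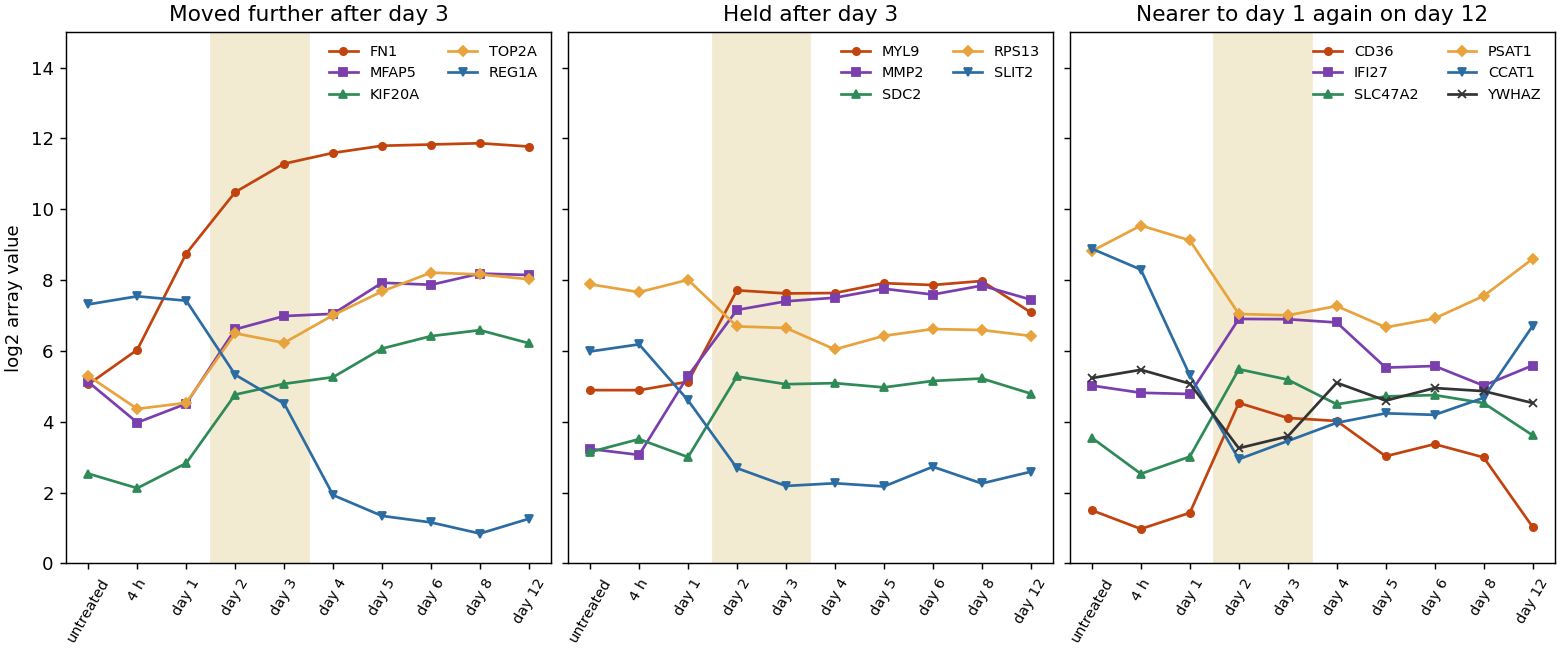
Log2 array values (vertical axis) of called genes on the 10 arrays in order of time, evenly spaced, with days 2 and 3 shaded. The left panel holds genes that moved at least 0.5 further by days 5 to 8, the middle panel genes that stayed within 0.5, and the right panel genes nearer to day 1 than to days 2 and 3 on day 12, such as CD36 at 1.03 and PSAT1 at 8.60.

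CD36 and PDGFD were back near their day 1 level on day 12, at 1.03 and 3.28. SLC47A2, SNCAIP and EPHA4 were likewise nearer to day 1 on day 12. Among the fallen genes PSAT1, PHGDH, ALDH1L2, SERPINE2, IL1A and CCAT1 had come nearer to day 1 by then, PHGDH to 6.24, beside 6.60 on day 1. YWHAZ, an adaptor protein of phosphoserine signalling, was low on days 2 and 3 alone. It was at 3.25 on day 2 and 3.59 on day 3, against 5.08 on day 1 (-1.66 ± 0.22, adjusted p = 0.0236), and no other array was below 4.53.

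**Figure D5:**
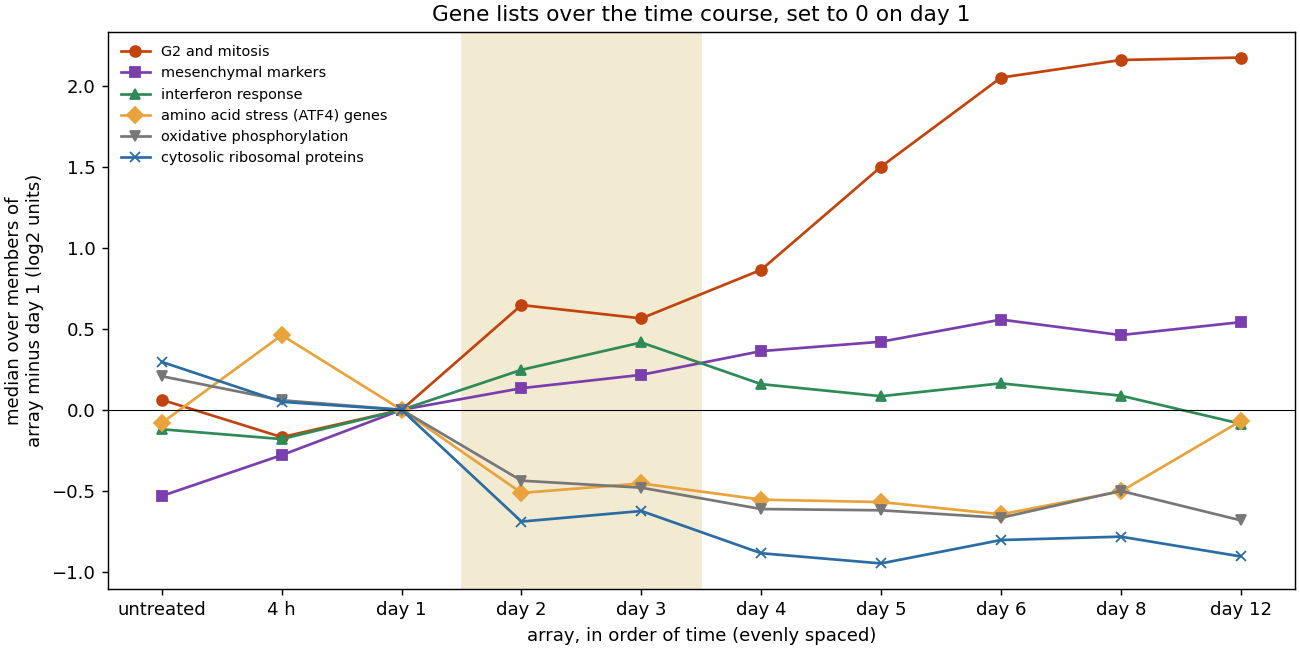
Median over list members of the log2 difference of each array from day 1 (vertical axis), for 6 gene lists on the 10 arrays in order of time, evenly spaced, with days 2 and 3 shaded. G2 and mitosis genes reach 0.65 on day 2 and 2.18 on day 12, ribosomal protein genes stay between -0.95 and -0.62 from day 2 on, and the amino acid stress list returns to -0.07 on day 12.

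As a list, the mitosis genes had a median 0.65 above day 1 on day 2, 0.56 on day 3, 0.86 on day 4 and 2.18 on day 12. The ribosomal protein genes stood 0.69 log2 units below day 1 on day 2 in the median, and between -0.95 and -0.62 on every array from day 2 to day 12. In untreated cells and at 4 h they had been 0.30 and 0.05 above day 1. The amino acid stress genes stood highest at 4 h (0.46), lay between -0.65 and -0.45 from day 2 to day 8 and were at -0.07 on day 12. The interferon list was highest on day 3, at 0.42, and at -0.09 on day 12. Of the 36 lists, 16 had no called member in either direction, with medians between -0.49 and 0.19.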

How the data were processed

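The authors hybridised RNA of MCF10A cells to Affymetrix whole-transcript gene arrays, 1 array for each of 10 times, and deposited 1 table of log2 values, summarised per Entrez gene by RMA (background correction, quantile normalisation and median polish) per the labels and the study's methods. Quantile normalisation gives all arrays nearly the same distribution, so a shift common to most genes cannot be seen. No scanner intensities were used here, so detection above background was not tested and precision is limited by the number of arrays.

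Gene IDs were matched to NCBI RefSeq symbols: 23093 of 23786 matched, and 693 kept their ID and entered the fit. limma 3.58.1 (R 4.3.3) fitted 1 mean for each of 7 groups (untreated, 4 h, day 1, days 2 and 3, day 4, days 5 to 8, day 12) to all 10 arrays with empirical Bayes moderation and Benjamini-Hochberg adjustment over all genes. The p-values measure only the spread between neighbouring times. Called genes had an adjusted p of at most 0.05 and a log2 difference of at least 1. Named were the 14 largest called differences per direction with both days at least 1 from day 1, up to 4 members per list, called members opposite to their list, and fixed markers. Some other genes are described outside these rules and are not among the 158 named genes below. They include called genes, such as YWHAZ, CD86 and GABRE, and genes not called, such as ENAM, MX1, OAS2 and MIR221. The comparison, the gene lists and the tests were chosen with earlier results of these data known. The fit was tested on simulated data. Alternatives changed the grouping, the centring, the genes kept, the moderation, the size limit and the arrays. Promoter (250 bases before the start) and microRNA sequences came from RefSeq, GRCh38.p14.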

Additional observations from a re-analysis of the deposited data

How the results depend on the processing

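The count of 198 called genes was the least stable result. It fell to 47 when day 12 was joined with days 5 to 8 and to 80 at a log2 difference of at least 1.5, and was 395 against the mean of 4 h and day 1, of which 150 were shared. Leaving out 1 array of days 2, 3, 5, 6 or 8 gave between 0 and 95 calls, with the least, 0, without day 6. Each of these omissions took away 1 of the 3 residual degrees of freedom, and the cause of the differences between them was not tested. The other settings gave between 198 and 288 calls. Under the intensity trend all 198 were among the 288. The 296 genes past 1 log2 unit on both days became 72 at 1.5 and 183 when the same distance from 4 h was required. Of 158 named genes, 3 that were not called changed sign: VIM (0.12) and CDC6 (-0.12) against the mean of 4 h and day 1, and SPINK1, which was -0.22 without day 3 and ranged up to 1.22 with 1 array left out. All 53 named genes that were called lost the call without day 6. The list medians for mitosis, interferon response, ribosomal proteins, oxidative phosphorylation and amino acid stress genes kept their sign under all 13 alternatives. Those that changed only the moderation, the size limit or the arrays of days 5 to 12 left each difference as it was. They could not move a median, so only the other alternatives could have changed a sign. The median of the secreted defence list ran between -0.13 and -1.08, the last over genes above the median gene only, and that of the TGFβ pathway between 0.01 and 0.17. No paired analysis was possible because each time has 1 array and the groups share no replicate number with day 1 beyond the first.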
